A study of Mus musculus with 6 samples.

Results

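The genes described here are those of the plasminogen activators, their receptor and a group of secreted or membrane-bound protease regulators: Plat, Plau, Plaur, A2m, Serpine2, Timp1, Timp2, Timp3 and Mmp14. They were measured in R1 mouse embryonic stem cells, a line of pluripotent cells from the early embryo, harvested undifferentiated and grown in serum medium with leukaemia inhibitory factor. The 3 Pcl2 shRNA samples are of 1 clone that stably expresses a short hairpin RNA (shRNA) targeting Pcl2, the gene Mtf2 of the Polycomb machinery. The 3 mismatch control samples are of cells that stably express a hairpin with mismatches in its place. Each sample was hybridised to a Mouse Genome 430 2.0 expression array, so the precision is limited by 3 arrays per group. The labels call the samples biological replicates. Because a single clone was used, the shRNA and the clone cannot be told apart.

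A gene of the set was measured where a probe set, the array's unit of probes for a transcript, was annotated to that gene and no other. By this rule 8 of the 9 genes had at least 1 probe set, 20 of the 45101 on the array. The annotation used here, which can be old, pairs Serpine2, the inhibitor also called protease nexin, with none of its probe sets, and Serpine2 was not analysed here. Of the 8 genes, 7 passed a filter on low signal and were among the 13095 genes tested, each by its brightest probe set, and Plau did not. The genes were chosen on the shRNA against control differences of these same arrays. Their differences are therefore a description. No p-value is given for them, and where the text says that they lay past the threshold of the fit over all genes, that is a description too and nothing is read from it.

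Plasminogen is a blood-borne zymogen that tissue-type plasminogen activator (Plat) and urokinase-type plasminogen activator (Plau) cleave to plasmin, a broad serine protease. The urokinase receptor Plaur holds Plau at the cell surface, and serpins such as Serpine2 inactivate the activators. Plasmin and the membrane-anchored matrix metalloproteinase Mmp14 both break down matrix proteins, Mmp14 also activates the gelatinase Mmp2 in a complex that contains Timp2, and the tissue inhibitors Timp1, Timp2 and Timp3 block metalloproteinases, while A2m (alpha-2-macroglobulin) traps proteases of several classes. In mouse F9 embryonal carcinoma cells, secreted plasminogen activator is a long-used sign of differentiation to endoderm.

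The promoters of 3 genes are shown because their signals took different courses, Plaur and Mmp14 being lower in the Pcl2 shRNA cells and Timp1 overlapping between the groups. The sequences are RefSeq's, on build GRCm38.p6, and run 5′ to 3′ from 250 bases before to 50 bases after the annotated start. Capitals mark letters that match a motif searched on both strands. The motif of AP-1, the Fos and Jun factors, was taken as TGANTCA. The motif of the TEAD factors was taken as GGAATG, and the GC box bound by Sp factors as GGGCGG.
Plaur, chr7:24462233-24462532, plus strand: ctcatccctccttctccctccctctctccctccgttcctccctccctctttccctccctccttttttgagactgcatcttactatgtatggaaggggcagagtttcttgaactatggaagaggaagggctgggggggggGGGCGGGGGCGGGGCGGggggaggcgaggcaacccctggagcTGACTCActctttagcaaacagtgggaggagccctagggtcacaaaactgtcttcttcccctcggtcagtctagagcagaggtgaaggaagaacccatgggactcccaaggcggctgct
Mmp14, chr14:54431348-54431647, plus strand: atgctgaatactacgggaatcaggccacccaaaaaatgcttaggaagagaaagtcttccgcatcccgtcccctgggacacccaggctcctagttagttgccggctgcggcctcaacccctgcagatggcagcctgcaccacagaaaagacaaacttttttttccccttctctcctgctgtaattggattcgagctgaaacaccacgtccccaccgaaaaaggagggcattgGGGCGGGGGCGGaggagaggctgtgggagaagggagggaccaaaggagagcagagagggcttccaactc
Timp1, chrX:20869916-20870215, plus strand: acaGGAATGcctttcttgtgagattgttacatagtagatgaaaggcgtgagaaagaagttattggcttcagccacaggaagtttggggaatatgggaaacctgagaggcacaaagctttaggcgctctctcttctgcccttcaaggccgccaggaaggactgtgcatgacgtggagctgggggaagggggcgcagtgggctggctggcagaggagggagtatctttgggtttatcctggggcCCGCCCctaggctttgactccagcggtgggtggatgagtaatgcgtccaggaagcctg

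Of the 9 genes, 6 had an entry among 32851 promoters of 300 bases, and all 6 (Plaur, Mmp14, Timp1, Timp2, Timp3 and Serpine2) held a GC box, a motif present in 35.7% of all promoters. Plaur held TGACTCA, a match to AP-1, at bases 182 to 188 of its window, beside 3 GC boxes, of which 2 share a base. AP-1 letters were in 7.81% of all promoters and in no other of the 6. Timp1 held the TEAD letters at bases 4 to 9, found in 14.7% of all promoters. None of the 6 windows held the cyclic AMP element TGACGTCA (1.79% of all promoters) or the Stat motif TTCNNNGAA (8.3%). The same was true of the TATA box, searched as TATAAA (13.6%), and of the E-box, searched as CACGTG (7.15%). The CArG box of serum response factor was also in none of them (1.63% of all promoters). The GC content was 59.3% for Plaur, 56% for Mmp14 and 55% for Timp1, against 68.7% for Timp2, 67% for Timp3, 77.7% for Serpine2 and a median of 52.7% over all promoters. A match describes letters in a window, and binding was not measured.

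The shRNA's target was lower in the cells labelled as carrying it: the brightest of the Mtf2 probe sets gave signals of 1048, 1167 and 870 in Pcl2 shRNA cells and 1951, 1513 and 1704 in mismatch control cells, a log2 fold change of -0.74 (SE 0.17, limma adjusted p = 0.0157). That call was lost without Pcl2 shRNA replicate 3 (-0.63, adjusted p = 0.0574) and without mismatch control replicate 1 (-0.75, adjusted p = 0.0519, by another probe set that was then the brightest). Here and throughout, signals are the authors' MAS5 values on a linear scale, and differences are those of log2(signal + 7), Pcl2 shRNA minus mismatch control. The arrays had been scaled to the same trimmed mean. For Gapdh the 3′ to 5′ signal ratio was 0.80 to 0.82 on the shRNA arrays and 0.81 to 0.82 on the control arrays. For Actb it was 1.18 to 1.33 on the shRNA arrays and 1.14 to 1.22 on the control arrays. The groups differed at the dim end, where unspiked bacterial control probe sets reached 18.0 to 20.3 on shRNA arrays and 11.2 to 12.1 on control arrays. Markers of undifferentiated embryonic stem cells were bright on every array, with Sox2 at 5434 to 7877 in Pcl2 shRNA cells and 3420 to 4394 in control cells, Nanog at 3728 to 4829 in shRNA cells and 2129 to 3646 in control cells, and Pou5f1 at 2607 to 3980 in shRNA cells and 2024 to 3294 in control cells. Of the 8 markers on that list, Zfp42, Tdgf1, Sox2 and Dppa4 rose and 4 did not pass, and the summed signal of the 8 was 33263 to 43683 in Pcl2 shRNA cells and 20961 to 27213 in control cells. Sox2 and Dppa4 were lost without single arrays (adjusted p up to 0.0662 and 0.113). Nanog, among the 4, had an adjusted p of 0.0888, and of 0.0107 with the replicate block.

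In the Pcl2 shRNA cells the protease trap A2m was several times higher, Mmp14 and Plaur were at 38.1% and 48.1% of their control signal, and Plat, Timp2 and Timp3 were also lower, while the Timp1 signals of the groups overlapped. In the limma fit over all genes, A2m on the higher side and Mmp14 and Plaur on the lower side lay past the threshold (Benjamini-Hochberg adjusted p below 0.05 over all genes tested), and 4 of the 7 did not. Over the 13095 genes 12.6% passed, 4.46% higher and 8.16% lower. The groups did not overlap for 5 of the 7, of which A2m was higher and 4 were lower, and for 31.2% of all genes tested (14.5% higher and 16.7% lower). The median log2 difference of the 7 was -0.95, and that of all genes 0.02. Samples that carry the same replicate number deviated together, so the fit was repeated with that number as a block. With the replicate block 6 of the 7 lay past it, 1 higher and 5 lower, Plat, Timp2 and Timp3 being added. As the genes were chosen on these differences, no comparison is made between these counts or their median and the values of all genes. Over all genes 23.8% then passed, 9.97% higher and 13.8% lower. In bulk RNA, fewer cells that express a gene and less of its RNA per cell cannot be told apart.

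**Figure D1:**
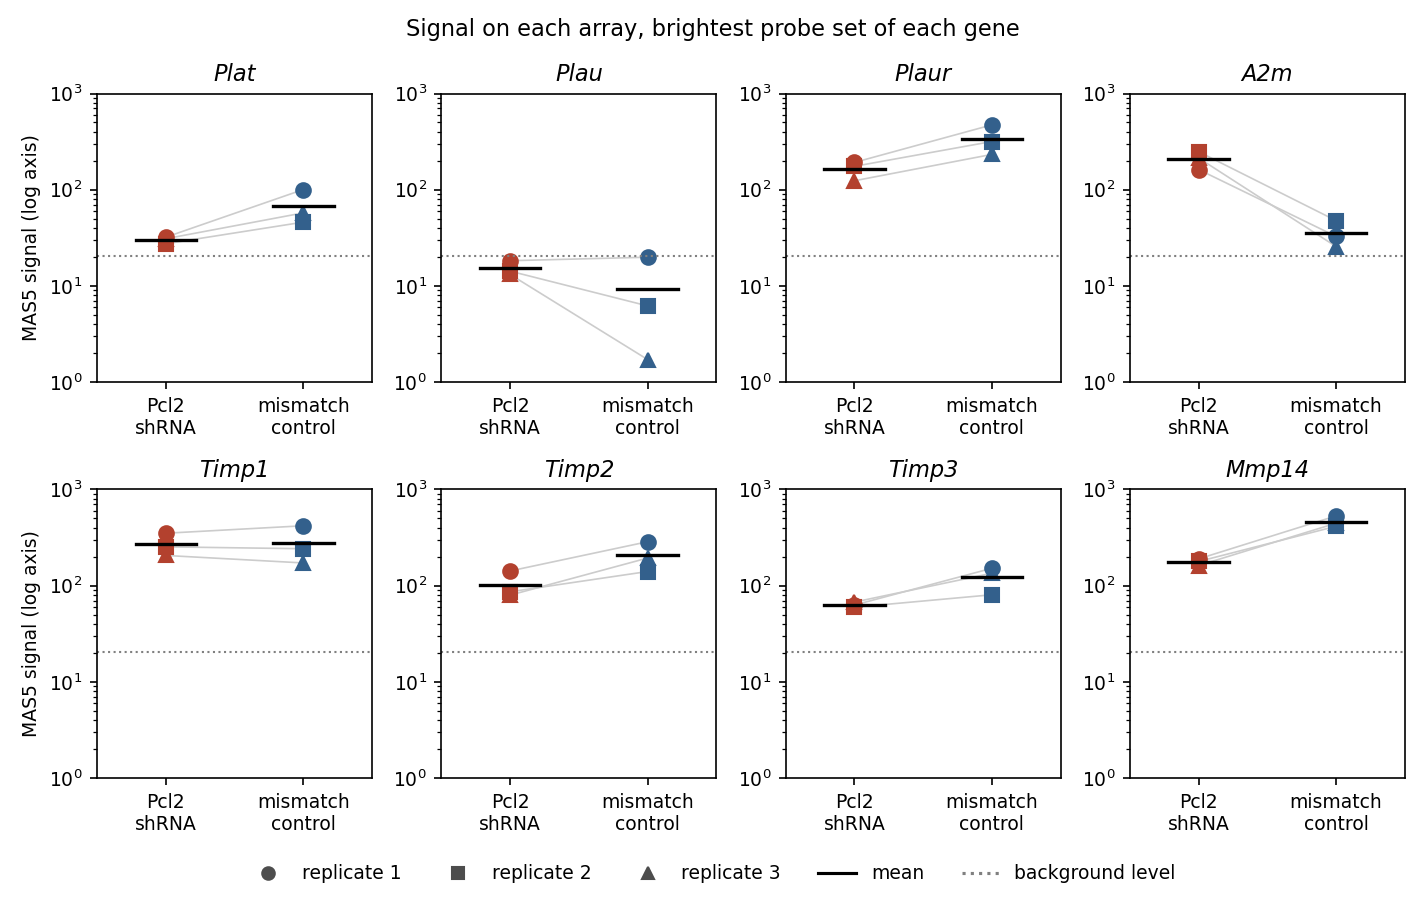
MAS5 signal (log axis) on each array for the brightest probe set of each of the 8 genes, Pcl2 shRNA arrays on the left of each panel and mismatch control arrays on the right. Markers show the replicate number, grey lines join equal numbers, black bars are group means and the dotted line is the background level of 20.3. A2m lies higher on all 3 shRNA arrays (162 to 248) than on the control arrays (25.7 to 47.8), Mmp14 lies lower on them, Timp1 overlaps, and Plau stays under that line.

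Among the activators, Plat was dim. Its brighter probe set gave 32.1, 27.4 and 31.0 in Pcl2 shRNA cells, against 100, 46.0 and 57.5 in mismatch control cells. No shRNA array reached the lowest control array, and the control arrays were far more spread, the first of them standing highest. The mean was 30.2 ± 2.46 in shRNA cells and 68.0 ± 28.7 in control cells (SD, n = 3 each), a log2 difference of -0.95 (SE 0.28). Without mismatch control replicate 1 the difference was -0.66. The other Plat probe set went the other way, with 50.2, 37.7 and 13.2 in shRNA cells and 33.3, 2.33 and 18.2 in control cells. Its groups overlapped and 3 of its 6 signals were at or below background, set at 20.3 from the brightest of the unspiked bacterial control probe sets. With the probe sets averaged, the Plat difference was -0.07, so its direction rests on the brighter probe set.

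Plau, the urokinase gene, was dim. Its probe sets gave 13.2 to 18.3 and 4.24 to 10.7 in Pcl2 shRNA cells, and 1.72 to 19.9 and 9.63 to 15.5 in mismatch control cells, all at or under 20.3. That limit comes from the shRNA arrays, and the bacterial probe sets reached only 11.2 to 12.1 on the control arrays, which Plau exceeded on control replicate 1 (19.9 and 15.5) and by 1 probe set on replicate 2 (12.1). No difference is given for it. Its receptor was well above that level: Plaur, the glycolipid-anchored urokinase receptor, gave 192, 175 and 124 in Pcl2 shRNA cells and 472, 317 and 233 in control cells. All shRNA arrays were below all control arrays, and in each group replicate 1 was highest. The mean was 164 ± 35.5 in shRNA cells and 341 ± 121 in control cells (SD, n = 3 each), 48.1% of the control level and a log2 difference of -0.99 (SE 0.26). Between samples of the same number the differences were -1.27, -0.83 and -0.87. Plaur no longer passed the threshold without Pcl2 shRNA replicate 2 (-1.05) or 3 (-0.81), or without mismatch control replicate 1 (-0.73) or 2 (-1.01). The same held with quantile normalization (-0.92), without a signal filter and with an untrended eBayes, so Plaur lay past it in 10 of the 17 other settings.

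A2m, which encloses a protease once it cleaves the bait region and in rat is an acute-phase protein of the liver, was the 1 gene of the set whose arrays were all higher. Its only probe set gave 162, 248 and 214 in Pcl2 shRNA cells and 32.7, 47.8 and 25.7 in mismatch control cells. The groups were far apart, and the control arrays were not far above background. The mean was 208 ± 43.5 in shRNA cells and 35.4 ± 11.3 in control cells (SD, n = 3 each), 5.88 times the control level. The log2 difference was 2.36 (SE 0.25). Under the 17 other settings tried the difference was 2.02 to 2.56.

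Of the tissue inhibitors of metalloproteinases, Timp1 gave 351, 254 and 206 in Pcl2 shRNA cells and 420, 242 and 172 in mismatch control cells. The groups overlapped and the arrays of equal number lay near each other, with differences of -0.25, 0.06 and 0.25. The mean was 270 ± 73.9 in shRNA cells and 278 ± 128 in control cells (SD, n = 3 each), a log2 difference of 0.02 (SE 0.31). With 1 array left out the difference lay between -0.27 and 0.36, so no direction is given. A single probe set covered this gene, which lies on the X chromosome.

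Timp2, the inhibitor that also bridges Mmp14 and pro-Mmp2, gave 142, 86.5 and 79.8 in Pcl2 shRNA cells and 286, 141 and 194 in mismatch control cells by its brightest probe set. Replicate 1 was highest in both groups, and its shRNA signal slightly exceeded the lowest control signal, so the groups overlapped. Within equal numbers the shRNA array was the lower one each time, by log2 differences of -0.97, -0.66 and -1.21. The overall difference was -0.95 (SE 0.29), which did not pass without the block. A further 3 Timp2 probe sets gave -1.18, -1.59 and -0.79, each with overlapping groups. The other 2 gave 0.04 and 0.15, the second of them under background on every array.

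Timp3, the inhibitor that binds to the extracellular matrix and also blocks ADAM-family sheddases, gave 62.9, 59.7 and 67.6 in Pcl2 shRNA cells against 152, 80.5 and 135 in mismatch control cells. The groups did not overlap, and the shRNA arrays were much closer to each other than the control arrays. The mean was 63.4 ± 3.96 in shRNA cells and 122 ± 37.2 in control cells (SD, n = 3 each), a log2 difference of -0.83 (SE 0.25) that did not pass without the block. The other 3 probe sets gave -0.76, -0.31 and -1.04, all with overlapping groups, and the last of these failed the signal filter.

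Mmp14, the membrane-type collagenase, had the smallest spread of the set and was lower by all of its probe sets. Its brightest gave 190, 179 and 162 in Pcl2 shRNA cells and 532, 415 and 446 in mismatch control cells. The 2 groups were far apart and each was narrow. The mean was 177 ± 14.1 in shRNA cells and 464 ± 60.5 in control cells (SD, n = 3 each), 38.1% of the control level and a log2 difference of -1.35 (SE 0.17). The other 2 probe sets gave -1.27 and -0.86, also without overlap. Under the 17 other settings the difference was -1.43 to -1.16.

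**Figure D2:**
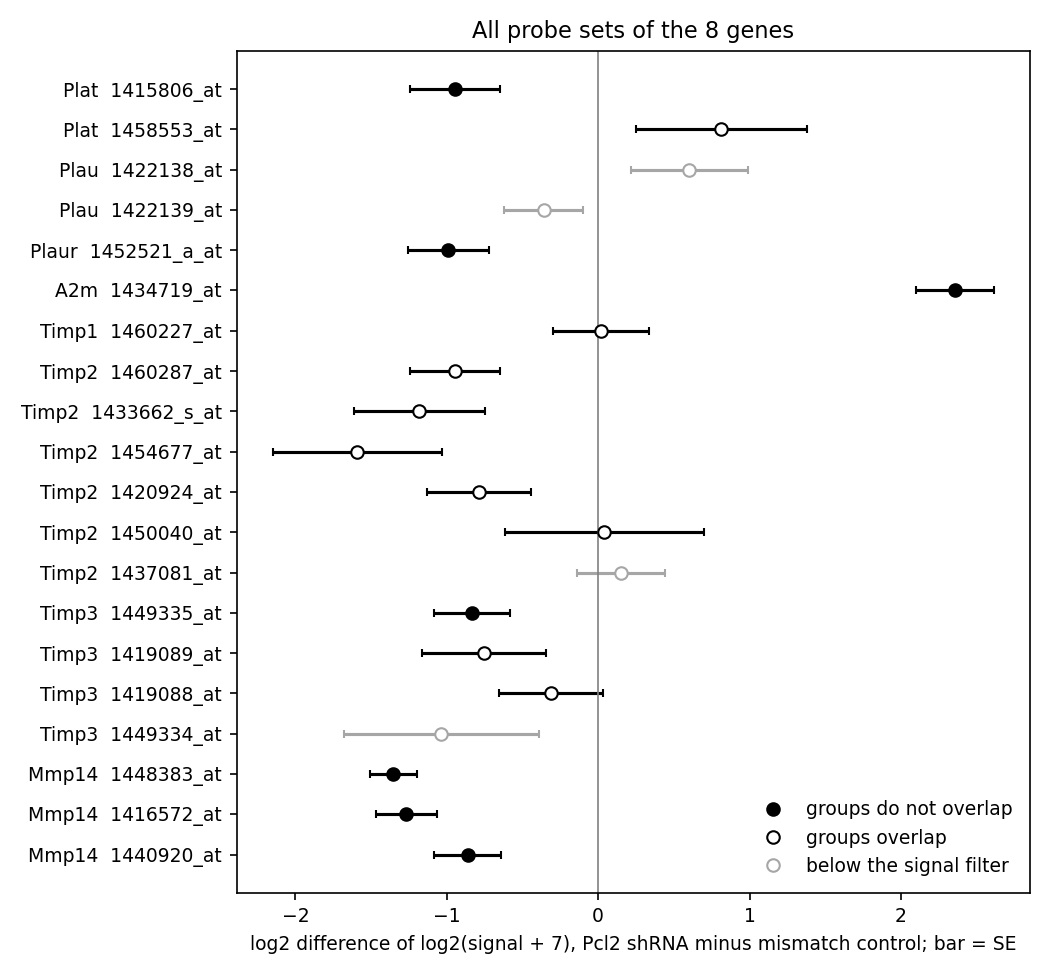
Difference in log2(signal + 7), Pcl2 shRNA minus mismatch control, for each of the 20 probe sets, with bars for the standard error from a limma fit over all probe sets that name 1 gene. Filled points mark groups that do not overlap (7 probe sets, 6 of them lower), and grey marks probe sets under the signal filter. The 3 Mmp14 probe sets lie together below 0, the Plat pair lies on either side of 0, and those of Timp2 run from -1.59 to 0.15.

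In 5 of the 7 tested genes (Mmp14, Plat, Plaur, Timp1 and Timp2) replicate 1 was the highest array of the shRNA group and of the control group, against 15.4% of all genes tested. A2m was highest on replicate 2 in both groups, and Timp3 on replicate 3 of the shRNA group and replicate 1 of the control group. This pattern does not use the difference between the groups. The within-group SD on the log2 scale, pooled over both groups, was 0.52 for Timp1, 0.46 for Timp2 and 0.42 for Plaur, above that of 91.9%, 88.2% and 83.9% of genes, and 0.15 for Mmp14. The median over all genes was 0.26.

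Markers of fibroblasts or feeder cells moved with the same arrays. Their summed signal over 11 genes was 682 on Pcl2 shRNA replicate 1, against 328 and 357 on the other shRNA arrays, and 1134 on mismatch control replicate 1, against 447 and 516 on the other control arrays. That sum is in large part Col1a1, Col1a2 and Thy1. In 7 of the 11, replicate 1 was highest in both groups. The pattern was not particular to this list. The summed endoderm markers, described below, were 751 on shRNA replicate 1, against 716 and 668 on the others. In control cells they were 1321 on replicate 1, against 1059 and 1217. The sums of the stem cell, trophoblast and blood or endothelium lists were not highest on replicate 1 in both groups. Of the 11, Dcn and Lum were at or below background on every array by their brighter or only probe set. A second Dcn probe set reached 33.5 on mismatch control replicate 1. Col1a1 gave 3.49 to 130 in shRNA cells and 251 on replicate 1 of the control cells, against 81.5 on replicate 2. Of the 8 fibroblast markers tested 0 passed in limma, with 1 at an unadjusted p below 0.05, and 2 were lower with the replicate block. All 8 log2 differences were negative, from -1.83 for Col1a1 to -0.01 for Pdgfrb. Their median was -0.42, against 0.02 for all genes. The part of such cells in the values of Plaur, Plat and the Timp genes was not tested. Control replicate 1 was the highest control array for Plaur, Plat, Timp2, Timp3 and Mmp14, so leaving it out had to bring their differences nearer to 0. They were then -0.73 for Plaur, -0.66 for Plat, -0.69 for Timp2, -0.66 for Timp3 and -1.25 for Mmp14. Nothing about such cells is read from these values. For A2m the difference stayed within the range above.

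Of the endoderm markers, which bear on Plat, Lamb1 and Fst fell among 7 tested and the summed signal of 12 was 668 to 751 in shRNA cells and 1059 to 1321 in control cells, with Afp, Ttr and Apoa1 at or below background on every array. That sum is in large part Lamb1. Hnf4a, named after its values were seen, went the other way without overlap, at 52.2 to 82.6 in shRNA cells and 30.2 to 50.1 in control cells (log2 0.70, adjusted p = 0.105), and Gata4, Gata6 and Foxa2 overlapped (0.00, 0.03 and -0.05). Amn and Pth1r, also named after their values were seen, were lower without overlap. Amn gave a log2 difference of -0.40 (limma adjusted p = 0.297). Pth1r, under the signal filter and not tested, gave 1.36 to 8.28 in shRNA cells and 23.1 to 33.4 in control cells. Lamb1 gave 381 to 409 in shRNA cells and 624 to 841 in control cells (limma adjusted p = 0.00646). Fst gave 22.6 to 60.4 in shRNA cells and 74.9 to 286 in control cells (adjusted p = 0.0184, and 0.0523 to 0.0662 without Pcl2 shRNA replicate 2 or 3 or control replicate 1 or 2). The trophoblast marker Cdx2 fell, the 1 of 6 tested that passed, and was under background in shRNA cells (2.13 to 18.4), against 29.2 to 145 in control cells (adjusted p = 0.0104). Tfap2c, named after its values were seen, was higher without overlap, at 682 to 1004 in shRNA cells and 483 to 611 in control cells (log2 0.51, adjusted p = 0.108, and 0.0285 with the replicate block). The summed signal of the 9 trophoblast markers overlapped, with 899 to 1291 in shRNA cells and 868 to 1310 in control cells. That sum is in large part Tfap2c. Eomes (log2 -1.03), Hand1 (-0.49, without overlap), Plac1 (-0.43) and Ascl2 (-0.42) were lower and did not pass. The median log2 difference of the 6 tested was -0.46, against 0.02 for all genes. Of 5 blood or endothelium markers tested 0 passed in limma, with 1 at an unadjusted p below 0.05, and Cd68, named after its values were seen, gave 156 to 211 in shRNA cells and 87.8 to 137 in control cells (adjusted p = 0.0638, and 0.0135 with the replicate block). The part of any of these cells in the results was not tested.

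**Figure D3:**
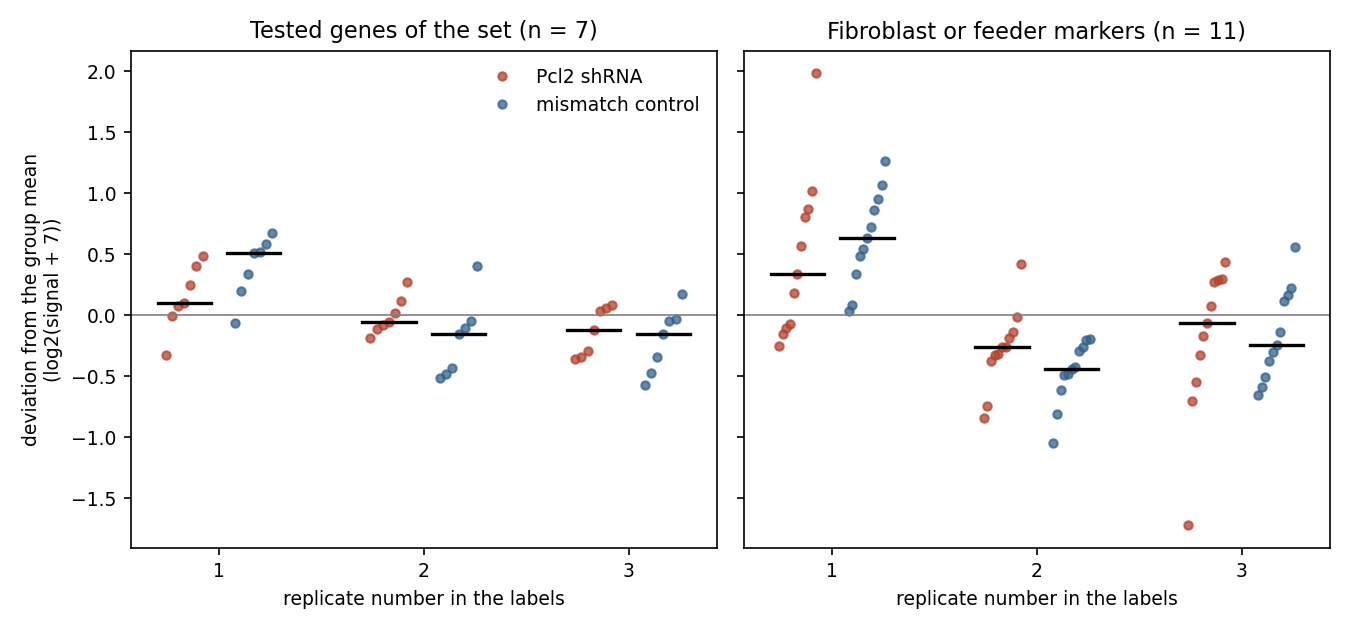
Deviation of each gene's log2(signal + 7) from the mean of its group, by the replicate number in the labels, for the 7 tested genes (left) and 11 fibroblast or feeder markers (right). Red points are Pcl2 shRNA arrays, blue points are mismatch control arrays and black bars are medians. Replicate 1 stands above the group mean for most genes in both panels.

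Other genes of the plasminogen system are given from a list written from general knowledge, with earlier results of these data known. Its counts and median, and those of the lists below, are therefore a description. Plg itself was not above the filter, with means of 11.2 in shRNA cells and 9.39 in control cells. Of 14 genes tested, 5 fell and 1 rose, and 8 did not pass. With the block 6 fell and 3 rose. Over all genes tested 12.6% passed, 4.46% higher and 8.16% lower, and with the block 23.8%, 9.97% higher and 13.8% lower. The median log2 difference was -0.39, against 0.02 for all genes.

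Both parts of the annexin A2 complex, which binds plasminogen and Plat at the cell surface, fell. S100a10 gave 991, 888 and 738 in Pcl2 shRNA cells and 2582, 1797 and 2276 in mismatch control cells (log2 -1.33, SE 0.18, limma adjusted p = 0.0012). Anxa2 gave 686, 569 and 587 in shRNA cells and 1653, 886 and 1386 in control cells (log2 -1.04, SE 0.22, limma adjusted p = 0.0121). No array of one group overlapped the other for either gene. S100a10 was lost without control replicate 1, when another probe set was the brightest (adjusted p = 0.0551), and Anxa2 without shRNA replicate 2 (0.0532) or with probe sets averaged (0.0602). Plgrkt, a plasminogen receptor named after its values were seen, gave 84.8 to 141 in shRNA cells and 165 to 253 in control cells (log2 -0.86, adjusted p = 0.0433). Leaving out any array but shRNA replicate 3 took Plgrkt past 0.05 (up to adjusted p = 0.15), as did quantile normalization (0.0524).

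Of the genes on that list with a role in coagulation, F2r, F3 and Tfpi passed. Thbd (thrombomodulin), named after its values were seen, gave 14.6 to 51.9 in shRNA cells and 11.9 to 52.8 in control cells (log2 0.12, limma adjusted p = 0.904). The thrombin receptor F2r gave 479, 396 and 284 in Pcl2 shRNA cells and 1238, 1415 and 1278 in mismatch control cells (log2 -1.77, SE 0.20, limma adjusted p = 0.00042), and a second probe set gave -1.88. F3, tissue factor, which starts coagulation, gave 64.4, 36.8 and 64.7 in shRNA cells and 388, 102 and 333 in control cells (log2 -2.01, SE 0.43, limma adjusted p = 0.0128), and was lost without shRNA replicate 2 (0.0521). Tfpi, the Kunitz-type inhibitor of the tissue factor complex, was the 1 that rose, with 975, 989 and 833 in shRNA cells and 553, 463 and 421 in control cells (log2 0.95, SE 0.16, limma adjusted p = 0.00411). With its probe sets averaged Tfpi gave 0.60 (adjusted p = 0.0655).

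Of 15 other serpins tested, Serpinb6c rose, Serpinh1 and Serpinb9 fell and 12 did not pass. With the block 1 rose and 5 fell. The shares over all genes were 12.6%, and 23.8% with the block. Serpinb9, an inhibitor of granzyme B, gave 9.37 to 26.7 in Pcl2 shRNA cells and 180, 64.4 and 198 in mismatch control cells (log2 -2.56, SE 0.41, limma adjusted p = 0.00292). Serpinh1, a collagen chaperone that does not inhibit proteases, gave 209, 198 and 271 in shRNA cells and 1298, 738 and 2066 in control cells (log2 -2.45, SE 0.31, adjusted p = 0.000901). Serpinb6c gave 192, 204 and 274 in shRNA cells and 50.4, 50.8 and 74.4 in control cells (log2 1.82, SE 0.22, adjusted p = 0.000757). Its probe set carries the suffix of one that can match several transcripts, and that serpin cluster holds related genes, so which of them it measures is uncertain. Serpinb6a and Serpinb6b, named after their values were seen, went the other way. Serpinb6a gave a log2 difference of -0.39 and did not pass. Serpinb6b, under the signal filter and not tested, gave -1.27.

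Of 13 other protease inhibitors 0 passed in limma, with 3 at an unadjusted p below 0.05, and 2 were lower with the replicate block. Among all genes 12.6% passed, and 23.8% with the block. The brightest were Cstb, a cytosolic cathepsin inhibitor, at 1777, 1606 and 2746 in Pcl2 shRNA cells and 2496, 2585 and 3616 in mismatch control cells (log2 -0.52, limma adjusted p = 0.17; 0.0135 with the block and 0.0437 without shRNA replicate 3), and Spint2, an inhibitor of membrane serine proteases, at 786 to 1180 in shRNA cells and 935 to 1127 in control cells (log2 -0.14, adjusted p = 0.682). The groups of both overlapped.

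Among the other metalloproteinases 8 genes were tested, and Mmp11 rose and Mmp2 fell, where 12.6% of all genes passed. Mmp2, the gelatinase that Mmp14 activates, gave 96.5, 83.1 and 170 in Pcl2 shRNA cells and 200, 194 and 363 in mismatch control cells (log2 -1.07, SE 0.31, limma adjusted p = 0.0458). A second Mmp2 probe set gave -0.83. The groups did not overlap, and replicate 3 was the highest in each. Mmp11, the stromelysin that is activated inside the cell by furin, gave 158, 193 and 193 in shRNA cells and 68.7, 114 and 76.7 in control cells (log2 1.04, SE 0.22, adjusted p = 0.0122), and was lost without shRNA replicate 2 (0.0605). Leaving out any array but shRNA replicate 3 ended the Mmp2 call (adjusted p up to 0.17), as did quantile normalization (0.0572), keeping dim genes (0.0784) and an eBayes fit with no trend (0.0659). Mmp9, the other gelatinase, named after its values were seen, gave 30.7 to 53.2 in shRNA cells and 35.1 to 72.7 in control cells (adjusted p = 0.737), and its dimmer probe set gave -1.08.

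Of 21 ADAM and ADAMTS genes 4 fell and 1 rose, where 8.16% of all genes fell and 4.46% rose. Adamts1, a secreted protease that cleaves the proteoglycans aggrecan and versican, gave 29.1, 25.6 and 16.8 in Pcl2 shRNA cells and 97.9, 103 and 82.0 in mismatch control cells (log2 -1.73, SE 0.24, limma adjusted p = 0.00136). Adamts15 (log2 -1.25, adjusted p = 0.0192), Adam8 (-1.19, 0.0193) and Adam11 (-1.01, 0.0403) also fell, and Adam23, which lacks protease activity, rose (0.89, 0.0252). Each of these 4 lost its call without at least 2 of the 6 arrays: Adamts15 without shRNA replicate 2 or control replicate 3 (up to 0.0838), Adam8 without shRNA replicate 2 or control replicate 1 (up to 0.0859), Adam11 without shRNA replicate 1 or 2 or control replicate 2 or 3 (up to 0.144), and Adam23 without any 1 shRNA array (up to 0.0875).

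Of 18 membrane serine proteases and convertases 5 fell and 2 rose, where 8.16% of all genes fell and 4.46% rose. Prss23, a secreted serine protease, gave 119, 34.8 and 12.5 in Pcl2 shRNA cells and 669, 180 and 423 in mismatch control cells (log2 -3.02, SE 0.62, limma adjusted p = 0.0103), and its replicate 1 was the highest in both groups. Tmprss2 (log2 -1.89, adjusted p = 0.00268), a transmembrane serine protease, Prss8, called prostasin (-1.59, 0.0108), and the mitochondrial protease Htra2 (-1.16, 0.00245) fell, and Pcsk6, a convertase that processes Nodal, rose (0.89, 0.00566). Furin, a convertase that activates Mmp14, and Dpp4, a membrane peptidase, complete the 7 and were named after their values were seen. Furin gave 64.6, 78.8 and 108 in shRNA cells and 239, 128 and 262 in control cells (log2 -1.22, limma adjusted p = 0.0197), and was lost without shRNA replicate 1 or 2 or control replicate 1 or 3 (up to 0.0731). Dpp4 gave 44.2 to 79.0 in shRNA cells and 15.8 to 35.5 in control cells (log2 1.19, adjusted p = 0.0274), with 0.68 (0.216) by another probe set without shRNA replicate 2, and it was also lost without shRNA replicate 1 or control replicate 1 or 3.

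**Figure D4:**
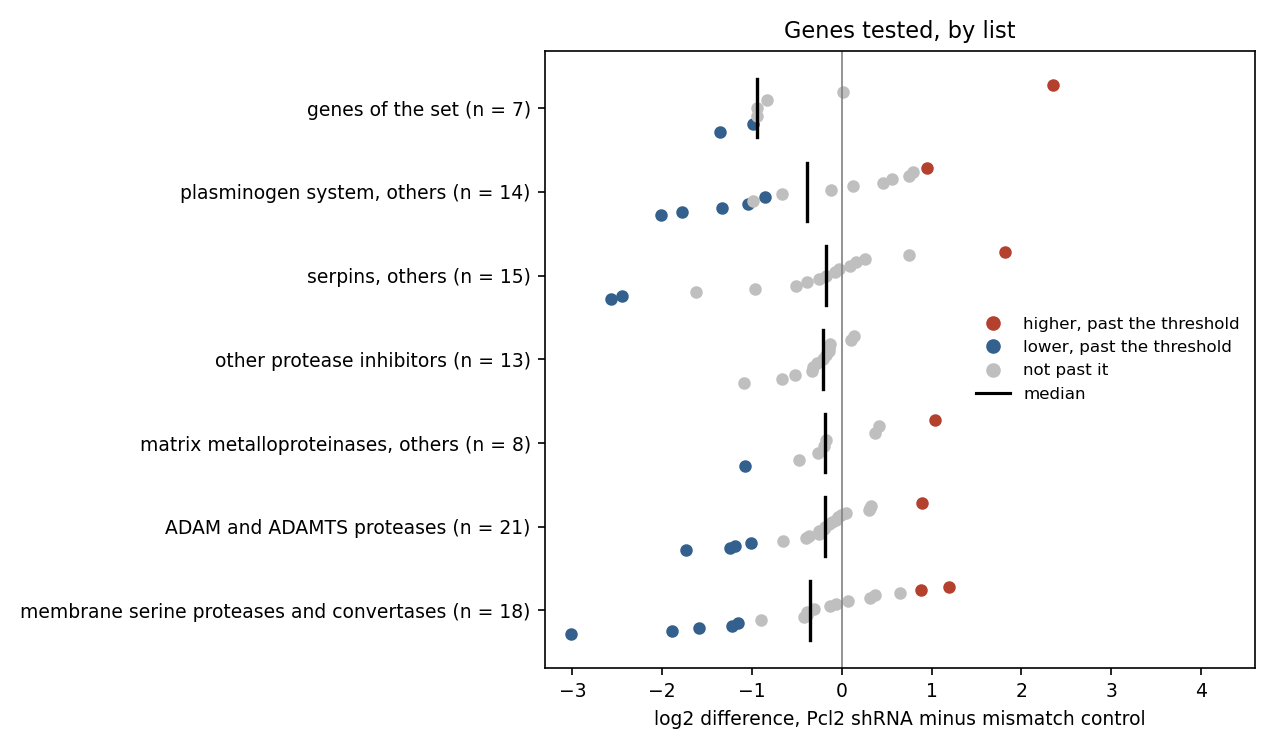
Log2 difference, Pcl2 shRNA minus mismatch control, of each gene tested, for the 7 genes of the set and 6 lists of related genes. Red and blue points passed limma's threshold higher and lower, grey points did not, and black bars are medians. The medians of the 6 lists lie between -0.39 and -0.17, and that of the 7 genes at -0.95. As the 7 genes were chosen on these differences, their median is not compared with those of the lists.

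For the genes whose groups did not overlap, the closest patterns over the 6 arrays were found by Pearson's r of the log2 values, which for arrays in 2 groups mostly reads the difference between them. Plaur was most like Cdh2 (r = 0.996), which gave means of 76.2 in Pcl2 shRNA cells and 410 in mismatch control cells, and Ruvbl1 (0.992). Mmp14 was most like Ubtd2 and Cdk17 (both 0.998), A2m like Gprc5b (0.999) and Samm50 (0.998), Plat like Niban2 (0.996) and Tbc1d2b (0.993), and Timp3 like Tmem123 and Cpeb2 (both 0.995). Such values are common over 6 arrays: 78 genes had an r over 0.95 with Plaur and 397 with Mmp14.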

How the data were processed

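For each probe set the authors deposited 1 intensity, a linear MAS5 signal from GCOS 1.4 according to the labels and the submitters' processing notes. Further settings were not found in the labels. Every array held 45101 positive values, with a trimmed mean (2% off either end) of 150.001 on each, so this scaling was kept. Probe sets were named from the platform annotation: 34945 named 1 gene, of which 34741 were matched to the RefSeq gene table of GRCm38.p6, 932 several, 9160 none, and 64 were controls. No coordinates were taken from that table.

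A pseudocount of 7, near the 20th percentile of the signals, was added before taking log2, so fold changes of dim genes are understated. Probe sets with a mean at or above the 40th percentile (signal 20.2) were kept, and the brightest represented each gene. limma 3.58.1 (R 4.3.3) was run over 13095 genes by lmFit and a trended eBayes, with Benjamini-Hochberg adjusted p below 0.05 as the threshold, and 1652 genes passed. The procedure was tested on simulated data.

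The genes and lists were chosen with earlier results of these data known. Besides the genes of the set, Mtf2 and markers, up to 5 genes per list with the smallest p were named, or the 2 brightest where none passed. Other genes of the lists were named with their values known, whether or not the text says so at each. The same holds for markers that did not pass, apart from Pou5f1 and Nanog. Background is the highest signal of 27 bacterial control probe sets without a spike, 20.3. Its highest value per array was 18.0 to 20.3 on Pcl2 shRNA arrays and 11.2 to 12.1 on control arrays.

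The labels do not say that a replicate number marks a shared culture or day. Over the genes tested, deviations from the group means correlated at 0.250 to 0.397 for equal numbers and at -0.382 to -0.00115 for unequal ones. Deviations sum to 0 within each group, so positive values for equal numbers bring negative ones for unequal numbers. The main fit did not use the numbers. On the data alone, the fit was repeated with the number as a block. The labels call the samples biological replicates of 1 shRNA clone and of the control, so p-values measure only the spread between these samples. Log2 values correlated at 0.965 to 0.974 within groups and 0.943 to 0.962 between them.

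Alternatives were median centring, quantile normalization, a pseudocount of 1 or 21, no filter, a filter at the 60th percentile, averaging each gene's probe sets, no _x_at or _s_at probe sets, eBayes without trend, the replicate block, a floor at background, and each array left out.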

Additional observations from a re-analysis of the deposited data

How the results depend on the processing

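The 7 tested genes kept the sign of their difference under every alternative run except Timp1, whose difference was near 0. With the mean of probe sets the log2 difference of Mmp14 was -1.16 and that of Plat was -0.067. The number of the 7 genes past limma's threshold was 6 with median centring and with the replicate block, and 2 to 5 without 1 array. Without mismatch control replicate 2 it was 5. Over all genes, 3113 passed with the replicate block and 979 to 1598 without 1 array, the lowest without Pcl2 shRNA replicate 2, and the Mtf2 difference was -0.84 to -0.63 without 1 array. Of the other serpins, 5 passed with median centring, 6 with the replicate block and 3 to 5 without 1 array. Of the other protease inhibitors, 1 passed with quantile normalization, median centring, a pseudocount of 21, no signal filter or the mean of probe sets, 2 with the replicate block, and 0 to 2 without 1 array. Of the other metalloproteinases, 1 passed with quantile normalization, no signal filter or no eBayes trend, and 0 to 2 without 1 array. Of the ADAM and ADAMTS genes, 2 passed with the filter at the 60th percentile and 1 to 5 without 1 array. The cause of these shifts was not tested. For genes at or near background in 1 group, such as Serpinb9 and Cdx2, the signal over background limits how well the size of a difference is known. Plau was at or near background in both groups, and no direction is given for it.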
